A study of Mus musculus with 18 samples.

Results

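The terminal, post-mitotic step of neutrophil formation in the bone marrow was followed at the level of RNA by comparing mature neutrophils (matNeu) with pre-neutrophils (preNeu) across every gene of the expression table. This comparison used 6 of the 18 samples of the series, 3 RNA-seq libraries of preNeu cells and 3 of matNeu cells, chosen by their titles. The table listed 34896 genes, of which 13061 reached at least 1 TPM, the length-corrected share of a library's transcripts, in 3 or more of the 9 RNA-seq libraries and were tested. Both stages were sorted from the marrow of adult C57BL/6 mice of wild-type genotype, 6 to 12 weeks old, with no treatment and no transgene named for them. The gates were set on Mac-1, Gr-1, cKIT, CXCR4, Siglec-F and CXCR2, with high cKIT and medium CXCR4 for preNeu cells and CXCR2 for matNeu cells, and the descriptions of the matNeu gate in the study differ in the sign of Siglec-F. The genes of these sort markers are therefore no findings of the comparison. A second field of the labels names another cell type than the title for all 6 libraries, and the titles were followed. The labels do not say whether the 3 libraries of a stage came from separate mice, so that the p-values measure the spread between these libraries, which may be technical. In sorted bulk samples, fewer cells of a type and less RNA per cell cannot be told apart.

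Neutrophils arise from granulocyte-monocyte progenitors (GMPs) through preNeu cells, the last stage that still divides. Granule proteins are made in waves during this course: primary (azurophil) granule proteins early, secondary (specific) granule proteins next, and tertiary (gelatinase) granule proteins late. After the last division the nucleus becomes lobed, the cell leaves the marrow, and it then depends on receptors that sense chemoattractants and microbes and on glycolysis more than on mitochondria.

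More genes were lower than higher in matNeu cells. On TPM as deposited, 2995 genes (22.9% of those tested) were higher and 5202 (39.8%) were lower at an adjusted p below 0.05 with limma. The median change of all tested genes was -0.32 on the log2(TPM + 1) scale. TPM is a share of a library, so a few abundant transcripts move all others. In the preNeu libraries the 10 most abundant genes took 24.1 to 28.3% of all TPM, and in the matNeu libraries 12.7 to 15.9%. After median-ratio rescaling, in which each library was divided by the median ratio of its genes to their geometric mean over the libraries, the median change was -0.07, with 3942 genes higher (30.2%) and 4415 lower (33.8%). Genes called higher thus made up 36.5% of the calls on TPM as deposited and 47.2% after rescaling. No gene was called in opposite directions by these scalings: the 2995 higher genes were also called higher after rescaling, 795 of the 5202 lower genes lost their call, and 947 genes without a call became higher. Of all genes tested, 390 (2.99%) fell by at least 4 on the log2 scale and 206 (1.58%) rose by as much. At the level of at least 100 TPM in the higher stage, the balance turned, with 976 of 2167 genes higher and 869 lower. The number of genes at 1 TPM or more was 10943 to 11443 in the preNeu libraries and 10754 to 11056 in the matNeu libraries. Replicates of a stage correlated at 0.960 to 0.970 across genes and libraries of the different stages at 0.688 to 0.709. The levels of 8699 genes (66.6%) did not overlap between the stages.

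**Figure D1:**
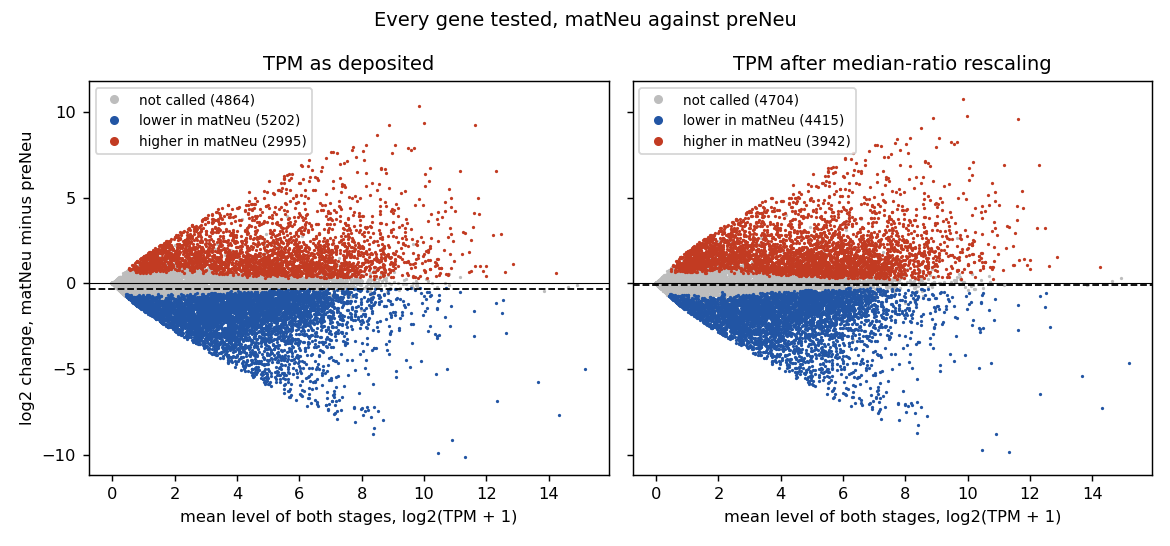
Log2 change of matNeu over preNeu cells (y axis, log2(TPM + 1) scale) against the mean level of both stages (x axis) for 13061 genes, on TPM as deposited (left) and after median-ratio rescaling (right). Red points were called higher and blue points lower in matNeu cells, grey points were not called, and the dashed line is the median of all genes, at -0.32 on the left and -0.07 on the right.

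Genes were grouped in 53 lists by function, made with earlier results of these data known. Many lists went strongly one way, and others were mixed or near the shares of all genes. Genes of division, of the making of RNA and protein, and of mitochondria were lower in matNeu cells, while genes of sensing, signalling, adhesion and early response were higher. The plot of list medians shows both groups, with little movement between the scalings.

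**Figure D2:**
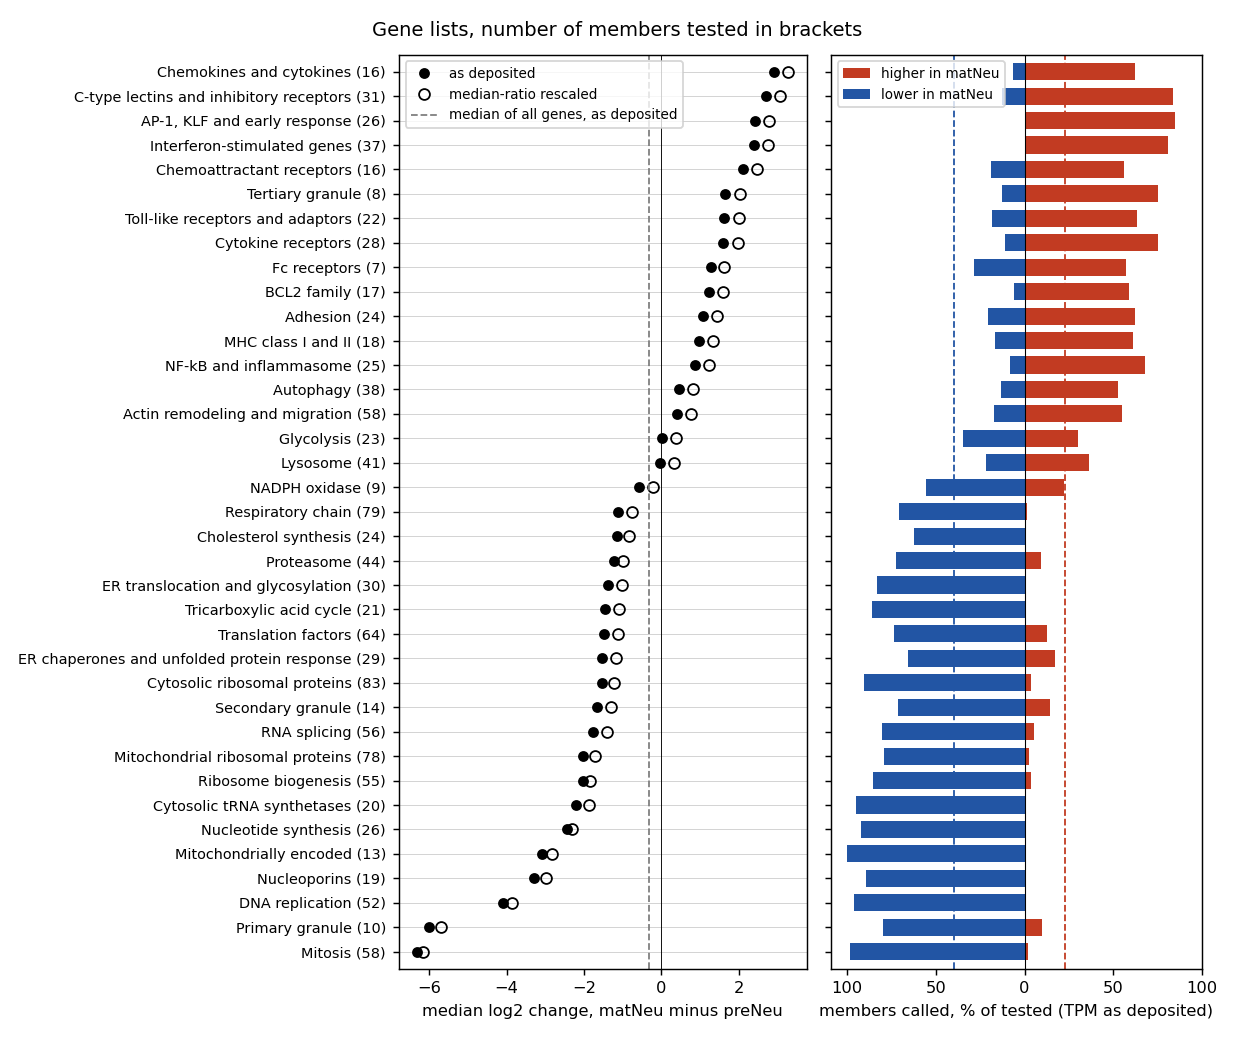
Left, median log2 change of matNeu over preNeu cells for the members of 37 gene lists, selected from 53, on TPM as deposited (filled) and after rescaling (open). The number of tested members is in brackets. Right, share of tested members called higher (red) or lower (blue) in percent, where dashed lines mark the 22.9% and 39.8% of all genes. Among the 37 lists shown, medians ran from -6.31 for mitosis to 2.91 for chemokines and cytokines.

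The 10 genes with the largest rises had means of at most 9.29 TPM (Ccl6) in preNeu cells and of at least 424 TPM (Sirpb1a) in matNeu cells. Il1b, which encodes the inflammatory cytokine interleukin-1 beta, stood at 0.119, 0.526 and 0.471 TPM in the preNeu libraries and at 1908, 1342 and 2236 TPM in the matNeu libraries. The log2 change of Il1b was 10.36 with a standard error (SE) of 0.30 (adjusted p = 1.24e-09), and 10.78 after rescaling. Clec4d, a C-type lectin receptor for fungal and mycobacterial glycolipids, rose from 2.61, 0.992 and 2.91 TPM to 1946, 2104 and 2022 TPM. The groups were far apart for both genes. Ccl6, a chemokine of myeloid cells, rose from a mean of 9.29 ± 1.05 (SD over 3 libraries) to 6291 ± 544 TPM. Sirpb1b and Sirpb1a, activating relatives of the receptor SIRP alpha, rose by 9.25 and 7.98 on the log2 scale, and the related Gm5150 by 8.11. Slc2a6, a hexose transporter of the GLUT family, rose by 8.67, Arg2, the mitochondrial arginase, by 8.10, and Pla2g7, which inactivates platelet-activating factor, by 7.90. H2-Q10, a class I-like gene of the major histocompatibility complex (MHC), rose by 7.91. How reads were divided among the near-identical copies of the Sirpb1 and H2-Q genes is not stated, so that the share of each copy is uncertain.

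The largest falls were of genes of granules and granulocyte precursors and of cell cycle genes. Mpo, which encodes myeloperoxidase, the peroxidase of primary granules, stood at 4194, 5097 and 5938 TPM in the preNeu libraries and at 1.87, 7.65 and 2.61 TPM in the matNeu libraries, a log2 change of -10.13 (SE 0.32, adjusted p = 2.26e-09). Elane, neutrophil elastase, went from 3026, 3088 and 2332 TPM to 0.957, 9.07 and 0.194 TPM. Replicate 2 was the highest of the matNeu libraries for both genes, and it lay far below every preNeu library. Fcnb, ficolin-B, a pattern recognition protein, changed by -9.12, and Ms4a3, a membrane protein of granulocyte precursors, by -8.43. The other 6 of the 10 largest falls were of genes of the cell cycle. Cdk1, the kinase that drives entry into mitosis, went from 693, 691 and 595 TPM to 0.978, 0 and 0.664 TPM, and its partner Ccnb1, cyclin B1, from 396, 417 and 511 TPM to 0.37, 0.125 and 1.86 TPM. Rrm2, the small subunit of ribonucleotide reductase, changed by -7.99, the mitotic kinase Pbk by -7.91, topoisomerase II alpha (Top2a) by -7.79 and cyclin A2 (Ccna2) by -7.69.

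**Figure D3:**
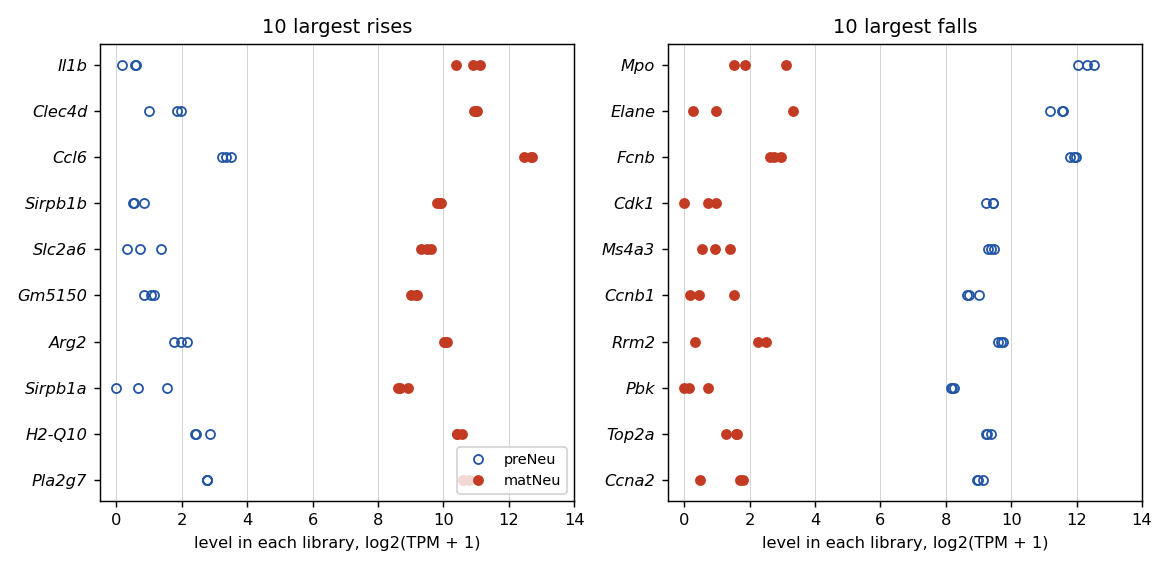
Level of each library (x axis, log2(TPM + 1)) for the 10 genes with the largest rise (left) and the 10 with the largest fall (right) from preNeu cells (open blue) to matNeu cells (filled red). For these 20 genes the 3 libraries of one stage lie apart from those of the other, and the log2 changes run from 7.90 for Pla2g7 to 10.36 for Il1b and from -7.69 for Ccna2 to -10.13 for Mpo.

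Genes of cell division were lower almost without exception. Of 58 mitosis genes, 57 were lower in matNeu cells and 1 was higher, with a median log2 change of -6.31 (-6.17 after rescaling) against -0.32 over all genes. Together they made up 1.42 to 1.49% of all TPM in preNeu cells and 0.0404 to 0.0438% in matNeu cells. Plk1, the polo-like kinase, changed by -7.37, and Cdc20, the activator of the anaphase-promoting complex, by -7.21. The member that rose was Pttg1, securin, which holds separase inactive, from 4.85, 6.10 and 6.75 TPM to 69.8, 51.6 and 56.2 TPM (log2 change 3.12, adjusted p = 6.77e-07). Kif23 and Cenpa changed least, by -1.6 and -2.52, and kept 110 and 54.3 TPM in matNeu cells.

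Of 52 DNA replication genes, 50 were lower and none was higher, with a median of -4.09. The helicase subunits Mcm3 and Mcm5 changed by -7.13 and -6.88, and Uhrf1, which brings the maintenance methyltransferase to newly made DNA, by -5.74. Rfc2, a clamp loader subunit, was the abundant exception at 203, 237 and 246 TPM in preNeu cells and 187, 290 and 218 TPM in matNeu cells, where the groups overlapped (adjusted p = 0.996). The other member without a call was Orc1. Of 26 genes for synthesis of nucleotides, 24 were lower and none higher, led by Paics of the purine pathway (-5.14) and Prps1 (-5.02). The control genes of the cycle were mixed, with 15 of 23 cyclin, E2F and CDK inhibitor genes lower and 5 higher. The antiproliferative genes Btg1 and Btg2 rose by 4.55 and 4.10, cyclin D2 (Ccnd2) by 2.63 and the CDK inhibitor p27 (Cdkn1b) by 1.6, whereas Cdkn2c fell by 4.86. Of 50 histone genes of the clusters, 13 were higher and 14 lower. Hist1h1c, linker histone H1.2, rose from 26.6 ± 3.52 to 324 ± 67.6 TPM and Hist1h2ap changed by -4.49. The libraries were made from poly(A)+ RNA, and most clustered histone mRNAs carry no poly(A) tail, so that these values cover a part of histone RNA.

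In the promoters of the mitosis genes, some sequence words that the choice of genes did not use were frequent. The gene lists were made by function. The share of a word in a list thus describes the listed genes and not their change between the stages. In the 250 bases before the start, the cell cycle homology region (CHR, TTTGAA or TTCGAA) was found on either strand in 19 of 43 mitosis promoters (44.2%), beside 12.8% of 8023 tested protein-coding genes with a promoter in the RefSeq table and 17.4% of all 27025 promoters of that table. A CCAAT box (CCAAT on either strand) was found in 69.8% of them, beside 37.4% and 34.5%, and both words in 37.2%, beside 5.32% and 6.21%. An E2F word (TTTCCCGC, TTTGGCGC, TTTCGCGC or TTTGCCGC) stood in 7 of 37 replication promoters (18.9%) and in 3.27% of the tested genes. The protein-coding genes with a promoter in that table were also taken by the size of their change. Of 271 that fell by at least 4 on the log2 scale, 23.6% held a CHR, 54.2% a CCAAT box and 8.49% an E2F word. Of 133 that rose by as much, the shares were 15.8%, 33.1% and 0%. The set of falls includes promoters of the lists above, such as those of Cdk1 and Top2a, so that these counts are not independent. A word in a promoter is a description and does not show that a factor binds there. The mitosis genes with the largest falls that hold both words are shown, from RefSeq on GRCm38.p6, with the CHR and CCAAT words in capitals. For Cdk1 the bases are those of chr10:69352913-69353162 on the minus strand, for Top2a those of chr11:99024190-99024439 on the minus strand.

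Cdk1: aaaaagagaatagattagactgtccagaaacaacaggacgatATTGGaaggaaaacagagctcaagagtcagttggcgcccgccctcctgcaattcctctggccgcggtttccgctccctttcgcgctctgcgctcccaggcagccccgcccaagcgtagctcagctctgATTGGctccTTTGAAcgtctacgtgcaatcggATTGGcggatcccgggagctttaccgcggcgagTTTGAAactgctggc

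Top2a: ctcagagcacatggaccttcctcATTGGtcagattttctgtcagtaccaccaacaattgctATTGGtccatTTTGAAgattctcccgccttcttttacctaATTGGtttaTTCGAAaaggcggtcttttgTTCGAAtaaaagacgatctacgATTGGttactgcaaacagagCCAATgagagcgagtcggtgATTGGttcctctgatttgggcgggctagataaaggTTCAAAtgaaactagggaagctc

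The Cdk1 stretch holds 2 CHR words, at 71 and 15 bases before the start, and 3 CCAAT words. Top2a holds 4 and 6.

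The granule lists differed by the wave to which their genes were assigned, with exceptions in each list. The members were assigned with earlier results of these data known, so that the division is a description. Of 10 primary granule genes, 8 were lower, 1 was higher and the median was -6. Cathepsin G (Ctsg) changed by -7.45 and proteinase 3 (Prtn3) by -7.46. The exception was Srgn, the proteoglycan serglycin that packs granule proteins, which rose from 490, 461 and 392 TPM to 3458, 3295 and 3138 TPM.

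Secondary granule genes were 10 lower and 2 higher of 14, and their share of all TPM went from 18.7 to 22% in preNeu cells to 4.56 to 5.87% in matNeu cells. Ngp, neutrophilic granule protein and the most abundant gene of the preNeu stage, went from 82697, 73686 and 57802 TPM to 2075, 3245 and 1529 TPM. Chil3, a chitinase-like protein, changed by -7.66, the cathelicidin Camp by -6.85 and lactoferrin (Ltf) by -5.78. Lcn2, lipocalin-2, which binds bacterial siderophores, changed less, by -1.75. Mmp8, neutrophil collagenase, went the other way, from 174, 206 and 234 TPM to 5831, 7533 and 6443 TPM (log2 change 5.01), and haptoglobin (Hp) rose by 1.01. Lyz2, lysozyme, was the most abundant gene of matNeu cells by its mean, at 28376, 35226 and 26946 TPM, and overlapped with the preNeu libraries at 35691, 29738 and 29242 TPM (adjusted p = 0.783).

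Tertiary granule genes were 6 higher, the sort marker Itgam among them, and 1 lower of 8. Mmp9, gelatinase B, rose from 359, 459 and 387 TPM to 6334, 6594 and 6688 TPM (log2 change 4.03, adjusted p = 2.5e-09). Adam8, a membrane protease, rose by 5.30, Slpi, an inhibitor of elastase, by 4.58 and properdin (Cfp) by 2.38. Cybb, the catalytic subunit of the NADPH oxidase, was the member that fell, from 1965 ± 180 to 286 ± 41.4 TPM. The oxidase genes as a list were 2 higher and 5 lower of 9 on TPM as deposited, and 2 higher and 3 lower after rescaling. The proton channel Hvcn1 fell by 5.07. S100a8 and S100a9, the abundant calprotectin genes, had means of 26439 and 16686 TPM in preNeu cells and 23757 and 12566 TPM in matNeu cells, with overlapping libraries and no call under either scaling. S100a9 was called lower without matNeu replicate 1 (-0.72).

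**Figure D4:**
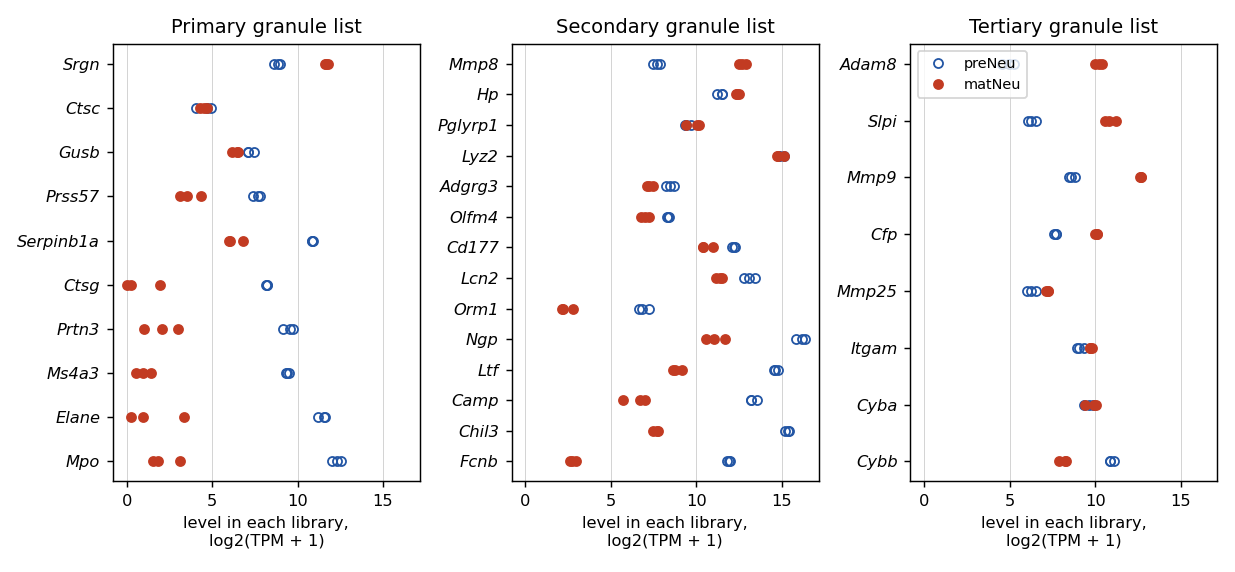
Level of each library (x axis, log2(TPM + 1)) of the genes of primary, secondary and tertiary granules in preNeu cells (open blue) and matNeu cells (filled red), ordered by the log2 change. Most primary and secondary genes lie lower in matNeu cells, 6 of 8 tertiary genes lie higher, and Mmp8 and Srgn stand apart from the other members of their lists.

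Most members of the receptor lists were higher in matNeu cells. Among 31 C-type lectins and paired receptors, 26 were higher and 4 lower, with a median of 2.71 (3.08 after rescaling). Clec7a, dectin-1, the receptor for beta-glucan, rose by 5.59, and Tyrobp, the adaptor DAP12, reached 3325 TPM. Clec12a, an inhibitory receptor for uric acid crystals, fell by 1.82. Among 28 cytokine receptors 21 were higher and 3 lower, with the sort marker Kit counted among the 3. Csf3r, the receptor of granulocyte colony-stimulating factor, rose from 191, 201 and 225 TPM to 3946, 3340 and 4336 TPM, and Csf1r, the receptor of macrophage colony-stimulating factor, from 8.22, 10.9 and 22.3 TPM to 309, 253 and 350 TPM. The decoy receptor Il1r2 rose by 4.15. Of 16 chemoattractant receptors 9 were higher and 3 lower, with the sort marker Cxcr2 counted among the 9. Fpr1, which senses formyl peptides of bacteria, rose by 5.67 and the chemokine receptor Ccr1 by 4.38. Cxcr1 was listed at 0 TPM in the 3 preNeu libraries and at 38.4, 42.9 and 39.3 TPM in the matNeu libraries. Ltb4r1, the high-affinity receptor of leukotriene B4, changed by -1.67.

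Toll-like receptors and their adaptors were 14 higher and 4 lower of 22. Tlr2, the receptor for bacterial lipoproteins, rose by 5.36, and Tlr4 with its co-receptor Cd14 by 1.77 and 3.58. Lbp, the plasma protein that carries endotoxin to CD14, fell by 5.10. In the NF-kB and inflammasome list 17 of 25 genes were higher and 2 lower. Nlrp3, the sensor of the inflammasome, was at 0, 0 and 0.611 TPM in preNeu cells and at 106, 75.1 and 105 TPM in matNeu cells, while the inflammasome adaptor Pycard and the sensor Nlrc4 changed by -1.75 and -2.82. Members of 1 pathway thus did not all move together. Of 16 chemokines and cytokines 10 were higher and 1 lower. Cxcl2, a ligand of CXCR2, rose from 0.154, 0.271 and 0.324 TPM to 186, 206 and 418 TPM, and the antagonist Il1rn by 4.64. Tnf, the tumour necrosis factor gene, kept a mean of 45.9 and 49.6 TPM.

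Of 7 Fc receptor genes 4 were higher and 2 lower. Fcgr3, an activating receptor for immunoglobulin G, rose by 2.71 and its signalling chain Fcer1g by 1.28, whereas Fcgr2b, the inhibitory receptor, fell by 2.07. Of 24 adhesion genes 15 were higher, the sort marker Itgam among them, and 5 lower. Jaml, a junctional adhesion molecule used in transmigration, rose from 4.61, 6.96 and 6.48 TPM to 1472, 1527 and 1545 TPM. Selplg, the selectin ligand PSGL-1, reached 3555 TPM, while the integrin beta-1 chain (Itgb1) fell by 2.12. Among 58 genes of actin remodelling 32 were higher and 10 lower, or 37 and 4 after rescaling. Lcp1, L-plastin, which bundles actin, rose by 1.83 and vinculin (Vcl) fell by 2.48. Genes of lipid mediators were 4 higher and 8 lower of 14. Ptgs2, the inducible cyclooxygenase, rose by 7.62 and 5-lipoxygenase (Alox5) by 1.00, whereas Lta4h, which makes leukotriene B4, fell from 2300, 2530 and 2914 TPM to 59.8, 67.2 and 66.1 TPM. Of 18 MHC genes 11 were higher and 3 lower (11 and 2 after rescaling). H2-D1 of class I rose from 1362 ± 89.6 to 9940 ± 853 TPM, and H2-DMb1 of class II fell by 2.39. Among 7 stefin A genes, inhibitors of cathepsins encoded in a cluster of close copies, 6 were higher and none lower, with Stfa2l1 at 146, 82.2 and 67.4 TPM in matNeu cells. The 10 listed stefin genes together took 0.000241 to 0.00063% of all TPM in preNeu cells. Members could thus enter the test through the matNeu libraries alone, which favours calls of higher, so that this count is no finding about the cluster.

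Interferon-stimulated genes were higher in matNeu cells with no member called lower. Of 37 tested, 30 were higher, with a median of 2.39 and a summed level of 1681 to 1780 TPM in preNeu cells and 7344 to 8028 TPM in matNeu cells. Ifitm1, which restricts the entry of viruses, rose from 1.30, 2.41 and 5.04 TPM to 547, 576 and 491 TPM. Ifit3b, a relative of IFIT3, rose by 6.81 and Rsad2, viperin, by 6.21. Oasl2, of the oligoadenylate synthetase family, rose by 5.82. Ifit3b has the close paralog Ifit3, and the division of reads between them is uncertain. Ifitm6 overlapped between the stages, at 794 and 817 TPM on average, and Ifit2 and Mx1 were not called, although Mx1 was called lower without preNeu replicate 1 (-1.1).

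The interferon-stimulated response element (ISRE, searched as GAAANNGAAA on both strands) was found in 14 of 27 promoters of these genes (51.9%), beside 2.79% of the tested protein-coding genes and 3.04% of all promoters. Among the protein-coding genes with a RefSeq promoter that rose by at least 4 on the log2 scale 12.0% held it. Among those that fell by as much the share was 2.58%. The set of rises includes promoters of the interferon list, such as those of Ifit3b and Rsad2, so that these counts are not independent. The members with the largest rises that hold the word are shown with it in capitals, as the reverse complement on these strands. For Ifit3b the bases are chr19:34607707-34607956 on the plus strand, for Rsad2 chr12:26456453-26456702 on the minus strand (GRCm38.p6, RefSeq).

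Ifit3b: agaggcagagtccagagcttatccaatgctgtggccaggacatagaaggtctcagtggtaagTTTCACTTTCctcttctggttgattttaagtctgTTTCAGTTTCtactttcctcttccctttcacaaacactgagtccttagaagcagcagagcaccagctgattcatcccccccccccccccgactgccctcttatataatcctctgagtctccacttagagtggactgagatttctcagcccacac

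Rsad2: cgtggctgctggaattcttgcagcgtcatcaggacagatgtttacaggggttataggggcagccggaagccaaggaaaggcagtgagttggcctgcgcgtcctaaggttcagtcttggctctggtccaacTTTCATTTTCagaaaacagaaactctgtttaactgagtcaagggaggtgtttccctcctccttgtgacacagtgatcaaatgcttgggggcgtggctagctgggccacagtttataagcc

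Ifit3b holds the word at 188 and 154 bases before the start and Rsad2 at 120 bases.

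Early response genes were likewise higher. Of 26 genes of the AP-1, KLF and early response list, 22 were higher and none lower, with a median of 2.43. Junb, a subunit of AP-1, went from 20.7, 27.1 and 23.7 TPM to 1986, 1713 and 2564 TPM. Dusp1, a phosphatase of MAP kinases, went from 40.1, 33.1 and 58.8 TPM to 3097, 3259 and 7116 TPM, and Fos from 52.5, 47.7 and 88.9 TPM to 1188, 1128 and 2476 TPM. Replicate 3 was the highest library within each stage for Dusp1 and Fos. The part of cell handling and sorting in these levels was not tested.

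The machinery of protein synthesis was lower at each step that was examined. Of 83 cytosolic ribosomal protein genes, 75 were lower and 3 higher (63 and 5 after rescaling). Rpsa, a protein of the small subunit, fell from 527, 487 and 368 TPM to 26.8, 22 and 26.9 TPM, and Rpl3 changed by -3.77. Rps9, at 434, 359 and 329 TPM in preNeu cells and 705, 580 and 479 TPM in matNeu cells, was the abundant exception. Ribosomal protein genes have many near-identical pseudogenes, and the division of reads between them is not stated. Mitochondrial ribosomal proteins were 62 lower and 2 higher of 78, Mrpl33 and Mrpl43 (54 and 4 after rescaling). The call of Mrpl43 was lost without matNeu replicate 1 (log2 change 0.43).

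Genes of ribosome biogenesis were 47 lower and 2 higher of 55, and the nucleolar protein Npm1 fell from 224 ± 6.52 to 19.0 ± 3.64 TPM. Polr1a, the largest subunit of RNA polymerase I, was an exception with a rise of 2.47. Translation factors were 47 lower and 8 higher of 64. Among the 8 was Eif4ebp1, a repressor of cap-dependent translation, which rose by 2.33, while its target Eif4e fell by 3.05. Of 20 cytosolic tRNA synthetases 19 were lower and none higher. Splicing genes were 45 lower and 3 higher of 56, and Srsf3 fell by 3.89. Of 19 nucleoporins 17 were lower and none higher (17 and 1 after rescaling), with a median of -3.30.

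Most genes of the secretory path and of protein breakdown were lower as well. Of 30 genes for translocation and glycosylation in the endoplasmic reticulum (ER), 25 were lower and none higher (21 and 2 after rescaling), and Ddost of the oligosaccharyltransferase fell by 4.62. ER chaperones and genes of the unfolded protein response were 19 lower and 5 higher of 29 (18 and 8 after rescaling). Among the 5 higher on TPM as deposited was Ddit3, the stress factor CHOP, which rose from 15.1, 14.6 and 7.08 TPM to 125, 111 and 102 TPM, while the chaperone partner Sdf2l1 fell by 4.60. Proteasome genes were 32 lower and 4 higher of 44 (26 and 7 after rescaling), and Psmb8 and Psmb9, the subunits of the immunoproteasome, were among the 4, with rises of 0.79 and 0.96.

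Mitochondrial RNA was lower in every library of matNeu cells. The 13 protein-coding genes of the mitochondrial genome were lower, with a median of -3.08, and mitochondrial transcripts took 1.58 to 1.80% of TPM in preNeu cells and 0.181 to 0.204% in matNeu cells. mt-Co1, a subunit of cytochrome oxidase, went from 5675, 5400 and 5792 TPM to 593, 670 and 729 TPM (adjusted p = 2.41e-09). For mt-Co2 the matNeu libraries were uneven, at 86.4, 0.0216 and 0.534 TPM. Subunits of the respiratory chain encoded in the nucleus were 56 lower and 1 higher of 79 (43 and 5 after rescaling), and Atp5g2 of the ATP synthase fell by 4.06. Genes of the tricarboxylic acid cycle were 18 lower and none higher of 21 on TPM as deposited. After rescaling 17 were lower and 3 higher, the latter Sdhb, Sdhd and Mdh2. Idh3a fell by 4.90 and fumarase (Fh1) changed by -4.17.

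The glycolysis list lay nearer to the shares of all genes than the mitochondrial lists did. Its 23 genes were 7 higher and 8 lower on TPM as deposited (30.4% and 34.8%, beside 22.9% and 39.8% of all genes). After rescaling 11 were higher and 5 lower, so that the balance turned with the scaling. The list counts membrane transporters beside the enzymes, and the transporters named here rose under both scalings. The glucose transporter Slc2a1 went from 9.5, 14 and 13 TPM to 86.5, 109 and 121 TPM. Slc2a3 rose by 2.69 and the lactate exporter Slc16a3 by 3.51. Pkm, pyruvate kinase, rose by 0.69, and Ldhb, the heart form of lactate dehydrogenase, fell by 4.68. The pentose phosphate and glycogen genes were 3 higher and 11 lower of 16, with Taldo1, transaldolase, at 3642 TPM and Pygl, glycogen phosphorylase, at 1851 TPM in matNeu cells among the 3 that rose. Cholesterol synthesis had 15 lower members of 24, led by Fdps (-4.68), and none higher, while after rescaling 15 were lower and 4 higher.

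Lysosomal and autophagy genes leaned upward. Of 41 lysosomal genes 15 were higher and 9 lower (20 and 7 after rescaling). Ctsd, cathepsin D, rose from 450, 529 and 633 TPM to 4524, 3975 and 4428 TPM, and Tfeb, the master factor of lysosome genes, by 3.08. Of 38 autophagy genes 20 were higher and 5 lower, and Map1lc3b, LC3B of autophagosome membranes, rose by 3.42. The BCL2 family, which decides on cell death by the mitochondrial route, was 10 higher and 1 lower of 17. Mcl1, the survival factor of neutrophils, rose from 36.2, 41.1 and 41.8 TPM to 222, 252 and 375 TPM. Death-promoting BH3-only genes rose also, Pmaip1 by 4.50 and Bcl2l11 by 1.42, and Bax overlapped between the stages at 22 and 22.4 TPM. Of 15 nuclear envelope genes 7 were lower and 1 higher (7 and 3 after rescaling). Lmnb2, lamin B2, fell by 5.56. Lbr, the lamin B receptor needed for lobed nuclei, overlapped at 631, 603 and 830 TPM and 651, 646 and 725 TPM and was called higher only after rescaling (adjusted p = 0.03).

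Among transcription factors, the RNA of Gfi1, the repressor that the study is about, fell to near 0. At the level of protein the study reports the other direction, with more GFI1 in matNeu than in preNeu cells by western blot. It also reports an active Gfi1 promoter in these stages by a GFP reporter. The RNA level is thus no measure of the protein here. Gfi1 stood at 20.1, 23.2 and 29.2 TPM in preNeu cells and at 0, 0 and 0.145 TPM in matNeu cells (log2 change -4.57, SE 0.35, adjusted p = 9.26e-07). Myc and Myb, factors of proliferating progenitors, changed by -4.29 and -2.96, whereas Mxd1, an antagonist of MYC, rose from 192, 239 and 265 TPM to 2251, 2262 and 3136 TPM. Cebpe, which drives secondary granule genes, fell from 525 ± 79.2 to 44.3 ± 7.75 TPM, Cebpd rose by 1.56, and Cebpa was not called, with 5.43 and 6.73 TPM. The call of Cebpd was lost without preNeu replicate 3 (1.27), matNeu replicate 2 (1.36) or matNeu replicate 3 (1.35), and without a filter on low values. For Cebpb the matNeu libraries were at 1.45, 8.49 and 100.1 TPM, and no call was made (adjusted p = 0.433). Spi1, PU.1, rose by 1.40.

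The NuRD complex, a remodelling and deacetylase complex, together with LSD1 and CoREST, was 10 lower and 2 higher of 17 (9 and 3 after rescaling). Rbbp7, Hdac2 and Hdac1 changed by -4.46, -4.41 and -1.93. The ATPase gene Chd4 was at 36.5, 40.9 and 49.1 TPM and at 33.1, 26.8 and 35.2 TPM, a log2 change of -0.40 that was not called (adjusted p = 0.058), and -0.04 after rescaling. Chd4 was called lower without preNeu replicate 1 (-0.50) or matNeu replicate 3 (-0.48). The subunits Mta3 and Mbd2 rose by 1.6 and 0.85, and their paralogs Mta1, Mta2 and Mbd3 changed by -1.53, -0.83 and -2.47. Kdm1a, LSD1, overlapped at 7.93 and 8.77 TPM, while Rcor1, CoREST, fell by 1.63. Of the polycomb methyltransferases, Ezh2 fell from 77.6, 85.6 and 77.3 TPM to 2.64, 2.79 and 3.66 TPM and Ezh1 rose from 14.9, 17.8 and 18.1 TPM to 64.3, 70.5 and 78.5 TPM. Dnmt1, the maintenance methyltransferase, changed by -4.18.

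The remaining lists were more mixed. Of 12 S100 genes 3 were higher and 2 lower (5 and 1 after rescaling), of 9 annexins 3 and 4, and of 4 whey acidic protein antiproteases 3 and 1 (3 and 0 after rescaling). Of 7 C/EBP genes 3 were higher and 1 lower, of 27 MYC, MYB and progenitor factors 5 and 11, and of 26 genes of DNA methylation and polycomb 5 and 13. RAB GTPases, which direct vesicles, were 21 higher and 10 lower of 53, transporters of the SLC families 52 and 83 of 206, and zinc fingers of the Zfp type 52 and 109 of 330. Of all genes tested, 22.9% were higher and 39.8% lower. The SLC transporters (25.2% and 40.3%) and the MYC, MYB and progenitor factors (18.5% and 40.7%) lay near these shares. The RAB GTPases (39.6% and 18.9%) and the Zfp genes (15.8% and 33.0%) lay further from them.

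Genes were also grouped by the letters of their symbols, without regard to function. Of 71 such families with at least 15 tested members, the highest shares of lower genes were in Rpl (39 of 43), Mrps (23 of 26), Nup (13 of 15), Gtf (16 of 19) and Polr (20 of 26), which encode ribosomal proteins, nucleoporins, general transcription factors and RNA polymerase subunits. The highest shares of higher genes were in Vmn (13 of 15) and Olfr (43 of 71), vomeronasal and olfactory receptors, followed by Cd (34 of 66), and by Arhgap (11 of 22), Kdm (8 of 16) and Il (16 of 32) at 50%. The levels of these receptors were low, with a median of 2.25 TPM in matNeu cells and 0.793 TPM in preNeu cells for Olfr. For Vmn the medians were 1.98 and 0.642 TPM. Both preNeu medians lie below the 1 TPM asked for in the filter. Members could thus enter the test through the matNeu libraries alone, which favours calls of higher, so that these shares are no finding about the families. Olfr1033 was an exception at 121, 177 and 175 TPM in preNeu cells and 4407, 2459 and 942 TPM in matNeu cells, a name chosen after its values were seen. Processed pseudogenes, as the table types them, were 193 higher and 68 lower of 823, at medians of 1.46 and 2.35 TPM in preNeu and matNeu cells. These shares are 23.5% and 8.26%, beside 22.9% and 39.8% of all genes, so that the share of higher genes is that of all genes. The medians lie near the 1 TPM of the filter, where the same limit holds. Protein-coding genes were 2328 higher and 4431 lower of 10300 (22.6% and 43.0%).

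The sort markers and the markers of other cells were as follows. Cxcr2 was at 64.7, 93.4 and 70.9 TPM in preNeu cells and 3027, 3400 and 3976 TPM in matNeu cells, and Kit at 45.9, 53.7 and 70.0 TPM and 3.83, 3.89 and 1.62 TPM. The CXCR2 gene was thus higher and the cKIT gene lower in the mature stage. Siglecf was detected in both stages at 19.5 and 41.7 TPM, and Cxcr4 at 41.3 and 48.2 TPM, Ly6g at 313 and 471 TPM and Itgam at 558 and 858 TPM. The 8 markers of neutrophil precursors, the sort marker Kit among them, were lower in matNeu cells, from a summed 13625 to 14517 TPM to 51.5 to 90.0 TPM. The 13 markers of neutrophils were mixed, with 6 higher and 4 lower. Their sum went from 146201 to 179495 TPM in preNeu cells to 56710 to 88010 TPM in matNeu cells. The sort markers Cxcr2, Ly6g and Itgam are among these.

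Markers of B cells moved with the stage. Of 6 markers 4 were higher in matNeu cells and none lower, and their sum went from 269 to 324 TPM to 605 to 748 TPM, most of it Ighm (267 and 571 TPM), with Ms4a1 and Cd79a at 12.0 and 22.7 TPM in matNeu cells. Immunoglobulin variable genes were 21 higher and 4 lower of 56 (37.5% and 7.14%, beside 22.9% and 39.8% of all genes). Their medians, 1.71 TPM in preNeu and 2.69 TPM in matNeu cells, lie near the 1 TPM of the filter. Members could enter the test through the matNeu libraries, which favours calls of higher, so that this count is no finding about them. The markers of basophils and mast cells were lower for 4 of 5, with a sum of 99.9 to 155 TPM in preNeu cells and 2.54 to 8.92 TPM in matNeu cells, led by Mcpt8. Those of monocytes were 2 higher (Csf1r and Adgre1) and 4 lower of 8, summing to 1693 to 2220 TPM and 1133 to 1497 TPM. For dendritic cells 1 of 6 markers was higher and 1 lower, for eosinophils 1 of 7 was higher and 3 lower, and for erythroid cells 1 of 6 tested was lower. GMP or stem cell markers had 1 of 5 lower, Kit, and no platelet marker of 3 tested was called. Of the T and NK cell markers 5 of 7 were too low to be tested, Cd3d was higher at 9.99 TPM and Nkg7 fell by 6.34. The part of other cells in the falls and rises above was not tested.

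H3K4me2, a histone mark of active and primed promoters and enhancers, was measured by ChIP-seq in both stages with 1 library each, chosen by title under the same conflict of labels, so that differences in it have no replicate check. The deposited lists held 49578 peaks over 97.9 Mb for preNeu cells and 44094 peaks over 80.4 Mb for matNeu cells. Genes that the expression table types otherwise than protein-coding, such as processed transcript or retained intron, were left out. Promoters ran from 2 kb before to 500 bp after the start of 10291 tested protein-coding genes. Most were marked at both stages whatever their call. Of all 10291 promoters, 89.4% carried a peak in the preNeu list and 88.2% in the matNeu list. Among genes lower in matNeu cells 94.2% (95% Wilson interval 93.4 to 94.8%) carried a peak in the preNeu list and 93.6% (92.8 to 94.3%) in the matNeu list, and among the higher genes 84.8% (83.3 to 86.2%) and 84.1% (82.6 to 85.5%). The 337 protein-coding genes that fell by at least 4 on the log2 scale kept a peak in 321 cases. The 173 protein-coding genes that rose by as much already had one in preNeu cells in 153 cases (88.4%), near the share of all promoters. A peak was gained in 8 of them, and none lost one.

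The extent of the mark moved more than its presence. The matNeu list covered less of the genome, and 66.9% of all these promoters were covered less by peaks in matNeu cells and 12.4% more. Of the 337 genes that fell by at least 4 on the log2 scale 79.2% (74.6 to 83.2%) were covered less and 4.45% (2.72 to 7.21%) more. Of the 173 that rose by as much 24.9% (19.0 to 31.8%) were covered less and 50.9% (43.5 to 58.2%) more. Of all 2327 higher genes, however, 49.6% were covered less and 21.2% more, and of the 4428 lower genes 75.3% and 9.35%. Median coverage in the preNeu list was 72.8% for the large falls and 51.5% for the large rises. The room to gain or lose thus differed. Where both lists held a peak, its median fold enrichment was lower in matNeu cells for the large falls (10.6 and 8.68) and the large rises (8.65 and 7.28). Over all these promoters the median fold was lower as well (10.5 and 8.51). The promoter of Mpo was covered at 100% in the preNeu list but at 27.6% in the matNeu list, and that of Il1b at 55.0% and 100%. The promoters that gained a peak with such a rise were those of Ifitm1, Gm5483, Wfdc17, Stfa2l1, Ifi27l2a, Cxcr1, Itgax and Krt86. Gfi1 kept a promoter covered at 100% in both lists, and so did Ngp, Ltf, Camp and Chil3. The intervals cover counting error only, and the depth behind the peaks is unknown.

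**Figure D5:**
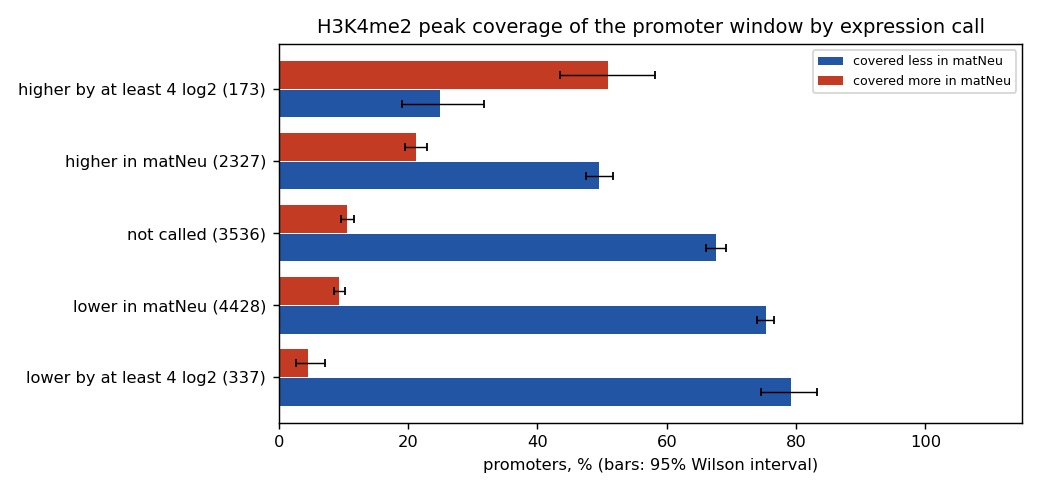
Share of promoters (x axis, percent, with 95% Wilson intervals) whose window was covered less (blue) or more (red) by H3K4me2 peaks in matNeu than in preNeu cells, for genes grouped by their expression call, with the number of genes in brackets. The share covered more rises from 4.45% among the genes with the largest falls to 50.9% among those with the largest rises.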

How the data were processed

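RNA-seq libraries were made by the authors from poly(A)+ RNA with a stranded kit, and the deposited table gives TPM per gene for each library. The protocol names TopHat and HTSeq, and the submitters' processing notes name kallisto 0.44.0. How the TPM per gene was made is not given in the sources used here. TPM sums to the same total in every library and keeps no depth, so that the depth is unknown. The H3K4me2 lists were deposited with a fold enrichment (ratio) and a −log10 q-value per peak, and the notes name BWA 0.7.17, MACS2 2.1.0 and the mm10 build.

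Genes that reached 1 TPM in 3 or more of the 9 libraries were tested on log2(TPM + 1) with limma 3.58.1 in R 4.3.3 (trend, Benjamini-Hochberg adjustment, threshold 0.05), with preNeu, matNeu and GMP libraries sharing the estimate of the spread. Fold changes on this scale understate those of low genes. An exact permutation test of 3 libraries against 3 cannot go below p = 0.1. The fit was tested on simulated data at 13061 genes, of which 200 were changed. It recovered 36 of 100 genes changed by 1 and 83 of 100 changed by 2 on the log2 scale, with 7 false calls among 126. Far more genes were called in the measured libraries, and the adjusted p depends on the share of changed genes. These rates therefore do not carry over to the calls reported here. Median-ratio rescaling divided the matNeu libraries by 0.756, 0.711 and 0.779 and the preNeu libraries by 0.887, 1.00 and 1.02.

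The genes, the lists and their members were chosen with earlier results of these data known. Named were the 10 largest changes in each direction among genes of at least 10 TPM in the higher stage without overlap, up to 5 called members of each list with the largest changes and its most abundant member, the sort markers, Gfi1, the NuRD, LSD1 and C/EBP genes and the symbol families. Other genes named, as exceptions within a list or as counterparts, were chosen after their values were seen. Peaks were assigned to promoters with gene starts of GENCODE on GRCm38, at an overlap of at least 1 bp. Promoter sequences came from RefSeq (GRCm38.p6). ATAC-seq lists, and peak lists that ran past the ends of the chromosomes of this build, were not used here. Some results are not reported here.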

Additional observations from a re-analysis of the deposited data

How the results depend on the processing

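The counts of higher and lower genes stayed within 1.5 times the reported ones under each alternative run, from 2177 to 4061 higher and from 4183 to 5662 lower. Leaving out 1 library gave 2538 to 2885 higher and 4802 to 5072 lower. The median change of all genes, -0.32, was -0.0668 after median-ratio and -0.0297 after upper-quartile rescaling, -0.42 without the 50 most abundant genes, -0.44 with a pseudocount of 0.1, -0.027 without a filter, -0.54 with at least 5 TPM, and -0.39 to -0.29 with 1 library left out. Replicate numbers were not taken to pair the libraries, since deviations of same-numbered libraries correlated at 0.0186, 0.0681 and 0.123. Adding a replicate block to the fit called 2970 genes higher and 5172 lower, and with rescaling 3899 and 4396.

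Counting promoters with at least 50% of the window covered by H3K4me2 gave 62.3% in the preNeu and 56.6% in the matNeu list among higher genes, and 70.7% and 53.3% among lower genes. Restricting peaks to a −log10 q-value of 5 or more, the shares were 82.1% and 80.8%, and 93.0% and 91.8%.

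Genes that changed sign under an alternative had no call on TPM as deposited. Under median-ratio rescaling, with or without the block, the log2 changes were 0.0286 for Ifit2, 0.35 for Lbr, 0.30 for Lyz2, 0.37 for Mdh2, 0.14 for Orc1 and 0.14 for S100a8. Under upper-quartile rescaling they were 0.0157 for Chd4, 0.0811 for Ifit2, 0.41 for Lbr, 0.36 for Lyz2, 0.42 for Mdh2, 0.19 for Orc1 and 0.20 for S100a8. Without the 50 most abundant genes they were -0.12 for Bax, -0.13 for Ifitm6, -0.13 for Rfc2, -0.11 for Sdhd and -0.0235 for Tnf. With 1 library left out the log2 changes ran from -0.0677 to 0.15 for Bax, -0.43 to 2.25 for Cebpb, -0.19 to 0.23 for Ifitm6, -0.0187 to 0.43 for Kdm1a, -0.10 to 0.13 for Lbr, -0.18 to 0.0236 for Lyz2, and from -0.0571 to 0.0467 for Mdh2, -0.87 to 0.48 for Orc1, -0.17 to 0.14 for Rfc2, -0.49 to 0.0992 for S100a8, -0.0192 to 0.30 for Sdhb and -0.0278 to 0.12 for Sdhd. Cd79a lost its call with a pseudocount of 0.1 (1.63). Cebpd lost its call without a filter (1.56, adjusted p = 0.0515). The cause was not tested.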
